A study of Mus musculus with 22 samples.

Results

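Of the 46078 genes counted in mouse distal colon, 10 that carry glucose into the cell, turn it into lactate, send lactate out or control these steps were taken by symbol. They are Slc2a1, Hk1, Hk2, Hk3, Pfkfb3, Aldoa, Pgk1, Ldha, Slc16a3 and Hif1a, and the set was chosen by these roles with the higher Slc16a3 counts of Winnie-Prolapse colons already known. The values of these genes in prolapse, and the counts of them past a limit there, are therefore only a description of the set, and nothing is read from those counts. All 10 of 10 passed the filter on low counts.

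The samples were 22 segments of distal colon, 1 library each, in 3 groups. The controls were 8 C57BL/6 mice aged 14 weeks, 4 male and 4 female, labelled wild type. The Winnie group held 7 mice aged 14 weeks, 3 male and 4 female, with a missense mutation in Muc2, the main gel-forming mucin of goblet cells, and colitis that arises without any added agent. The Winnie-Prolapse group held 7 Winnie mice aged 18 weeks, 4 male and 3 female, with rectal prolapse and severe inflammation. Each library came from 1 mouse, so p-values measure the spread between mice. Prolapse and age cannot be told apart, since every prolapsed colon came from an older mouse. Whole tissue was sequenced, so fewer cells of a type and less RNA per cell cannot be told apart in any value below.

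Glucose enters cells through the carrier GLUT1, the product of Slc2a1, and is trapped by a hexokinase. Pfkfb3 makes the sugar phosphate that speeds up phosphofructokinase, aldolase (Aldoa) and phosphoglycerate kinase (Pgk1) act further down, lactate dehydrogenase A (Ldha) turns pyruvate into lactate, and MCT4, the product of Slc16a3, lets lactate and protons leave. Hif1a encodes the oxygen-regulated subunit of a transcription factor whose known targets include most of these genes. In the colon, absorptive colonocytes burn mainly butyrate, which enters by MCT1 (Slc16a1), and activated myeloid cells are known for fast glycolysis.

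The core sequence to which the hypoxia-inducible factors bind was looked for in the promoters, and 5 stretches that hold it are shown because they belong to the genes on which the results turn. The letters ACGTG and GCGTG were searched on both strands in the 250 bases before each RefSeq start on GRCm38.p6, and overlapping matches were merged into 1. All 10 genes had a match in at least 1 promoter, as did 13 of their 15 promoters (86.7%). The motif is common: 41.5% of 27025 genes in any promoter, 38.6% of 32851 promoters and 63.8% of the 9178 promoters with at least 60% GC held it. The stretches below are 100 bases long, 5′ to 3′ on the strand of the gene, and capitals mark the matches. A match is a description of the letters, not a measured binding site.
Slc16a3, chr11:120948967-120949066, plus strand: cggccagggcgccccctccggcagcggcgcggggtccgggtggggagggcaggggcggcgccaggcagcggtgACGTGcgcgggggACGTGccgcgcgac
Pfkfb3, second promoter, chr2:11502113-11502212, minus strand: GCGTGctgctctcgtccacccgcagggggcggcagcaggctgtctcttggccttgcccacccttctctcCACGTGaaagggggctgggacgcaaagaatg
Hk2, chr6:82774455-82774554, minus strand: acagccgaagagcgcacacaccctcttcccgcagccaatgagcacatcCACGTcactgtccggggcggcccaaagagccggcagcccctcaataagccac
Ldha, first promoter, chr7:46845704-46845803, plus strand: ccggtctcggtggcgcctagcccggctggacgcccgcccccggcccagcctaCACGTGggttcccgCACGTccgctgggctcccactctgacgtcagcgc
Hif1a, chr12:73907732-73907831, plus strand: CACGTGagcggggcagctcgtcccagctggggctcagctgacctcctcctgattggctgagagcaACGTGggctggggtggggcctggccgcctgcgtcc

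Slc16a3 and Ldha both held a pair of matches in the last 50 bases before the start. Their counts are given below. For Slc16a3 every prolapsed colon lay above every Winnie colon, with overlap in the comparisons with C57BL/6, and Ldha overlapped between all groups. The part of the matches in either gene was not tested.

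The libraries held 24.8 to 36.3 M counts. Levels are CPM, a gene's counts per M counts of the library after TMM scaling for library composition. Epithelial markers (6 genes) were high in every library. They summed to 7745 to 9981 CPM in C57BL/6, 8693 to 13570 in Winnie and 8508 to 14050 in Winnie-Prolapse. Their medians were 9083, 11240 and 10400 CPM in the same order. C57BL/6 replicate 7 stood apart: its median correlation with its own group over 17769 genes was 0.939, against 0.978 to 0.983 for the other 7 controls. Winnie replicate 5 correlated better with the controls (0.981) than with its own group (0.964), and Winnie replicate 2 better with Winnie-Prolapse (0.967 against 0.963). Winnie-Prolapse replicates 1 and 3 correlated better with Winnie (0.970 and 0.967) than with their own group (0.958 and 0.946). Winnie-Prolapse replicate 6 gave 18.0% of its counts to 6 milk protein genes, which were at no more than 0.00542% elsewhere. Markers of other cells also moved with the groups. Summed macrophage and monocyte genes (10) were at 116 to 273 CPM in C57BL/6, 196 to 502 in Winnie and 308 to 948 in Winnie-Prolapse. Without Ly6g, which was at 3.67 CPM in C57BL/6 replicate 7 and at 224 CPM or more in each of the other libraries, 9 neutrophil genes summed to 0.489 to 3.19, 1.54 to 125 and 71.1 to 1295 CPM. The median sum of 7 smooth muscle genes was 8544 CPM in C57BL/6, 3586 in Winnie colons and 2597 in Winnie-Prolapse, colonocyte genes (6) were at 7517, 6444 and 1854 CPM, and squamous epithelium genes (7) at 6.43, 31.1 and 402 CPM. Summed T cell genes (5) were at 3.15 to 15.2 CPM in controls, 10.3 to 29.1 in Winnie and 12.2 to 39.5 in Winnie-Prolapse, and B and plasma cell genes (5) at 301 to 639, 500.4 to 1591 and 1210 to 2029 CPM. Proliferation genes (5) summed to 93.3 to 235 CPM in controls, 213 to 581 in Winnie and 199 to 629 in Winnie-Prolapse. In Winnie against C57BL/6, 5 of 5 T cell genes, 5 of 5 proliferation genes, 2 of 5 B and plasma cell genes and 6 of 10 macrophage and monocyte genes were higher at an adjusted p under 0.05, beside 13.8% of all genes tested. So were 3 of 6 epithelial genes (Vil1, Krt19 and Krt8), 1 of 6 colonocyte genes (Krt20), and 2 of 3 neutrophil and 1 of 3 squamous genes tested. The median log2 fold change of the 6 epithelial genes was 0.30, beside -0.01 over all genes. In the same comparison 7 of 7 smooth muscle genes and 5 of 5 red cell genes were lower, beside 11.9% of all genes. None of these lists had a member at 0 in all libraries of a group. Apart from the correlations with Slc16a3 given last, the part of these markers in the results below was not tested.

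Winnie colons without prolapse held more hexokinase, Pgk1 and Hif1a mRNA than C57BL/6 colons, while Slc16a3, Ldha and Aldoa were not detectably different. In edgeR at an adjusted p under 0.05, 5 of the 10 genes were higher in Winnie and 0 were lower. Over all 17289 genes tested, 13.8% were higher and 11.9% lower. An unadjusted p under 0.05 was reached by 7 of the 10 and by 6901 of all genes tested. DESeq2 called 6 of the 10 and limma-voom 4, and neither called one lower. Over all genes, DESeq2 called 2914 higher and 2612 lower, and limma-voom 2262 higher and 2164 lower. The median log2 fold change was 0.33 over the 10 genes and -0.01 over all genes. At the study's own limits, an adjusted p under 0.001 and 1.5-fold, edgeR called none of the 10, DESeq2 called 1 and limma-voom none, beside 0.0925% of all genes in edgeR. The count of 5 fell to 3 without any one of C57BL/6 replicates 3, 4, 6 or 7 or Winnie replicates 1, 6 or 7, and rose to 7 without Winnie replicate 5. The call of Hk2 was kept in 5 and that of Pgk1 in 6 of the 15 fits without 1 library. Males alone called 2 of the 10 and females alone 0, where 5299 and 1 of all genes were called. No gene of the 10 had Winnie values wholly clear of the C57BL/6 values, which was so for 1.60% of genes. With library totals in place of TMM scaling, 3 of the 10 were called, and the 2387 higher and 2054 lower genes of the main fit became 1538 and 2785.

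In prolapse, 7 of the 10 genes stood above C57BL/6 at the stricter limits (Slc2a1, Hk2, Hk3, Pfkfb3, Pgk1, Slc16a3 and Hif1a), where 9.84% of the 17397 genes tested were higher and 8.47% lower. Without both C57BL/6 replicate 7 and Winnie-Prolapse replicate 6, an alternative chosen after seeing the data, 5 were called. Against Winnie, 3 of the 10 (Slc16a3, Hk3 and Hk2) stood higher at the limit of 0.05, where 5.01% of 17041 genes were higher and 3.73% lower. That count was 1 without any one of Winnie replicates 4, 5 or 6 or Winnie-Prolapse replicate 5, and 5 without Winnie replicate 2. The values of 4 genes, Hk2, Hk3, Pfkfb3 and Hif1a, did not overlap between Winnie-Prolapse and C57BL/6 (9.07% of genes lay wholly higher), and those of 1 gene, Slc16a3, did not overlap between Winnie-Prolapse and Winnie (0.535%). None of these counts and shares is support for a change in prolapse, since the set was chosen with the prolapse values of Slc16a3 known. The comparisons share libraries: both of prolapse use the same 7 prolapsed colons, and both with C57BL/6 the same 8 controls.

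**Figure D1:**
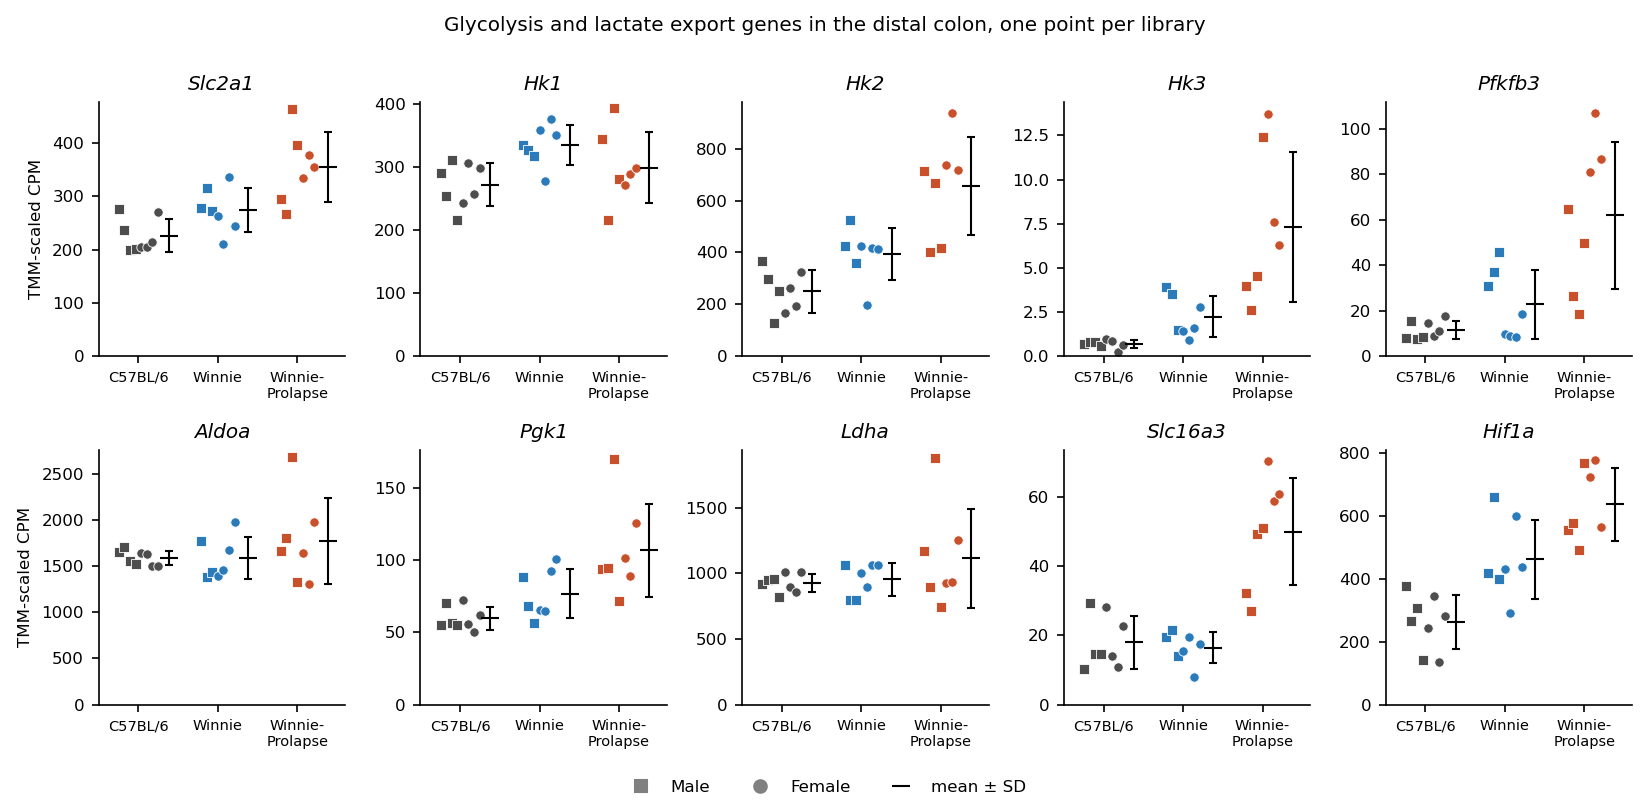
Level of each of the 10 genes in CPM after TMM scaling (vertical axis, from 0), with 1 point per library, squares for males and circles for females, and the mean ± SD of each group beside its points. Slc16a3 sits between 7.83 and 29.4 in C57BL/6 and Winnie and between 27.0 and 70.4 in Winnie-Prolapse, while Aldoa and Ldha overlap in all 3 groups.

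**Figure D2:**
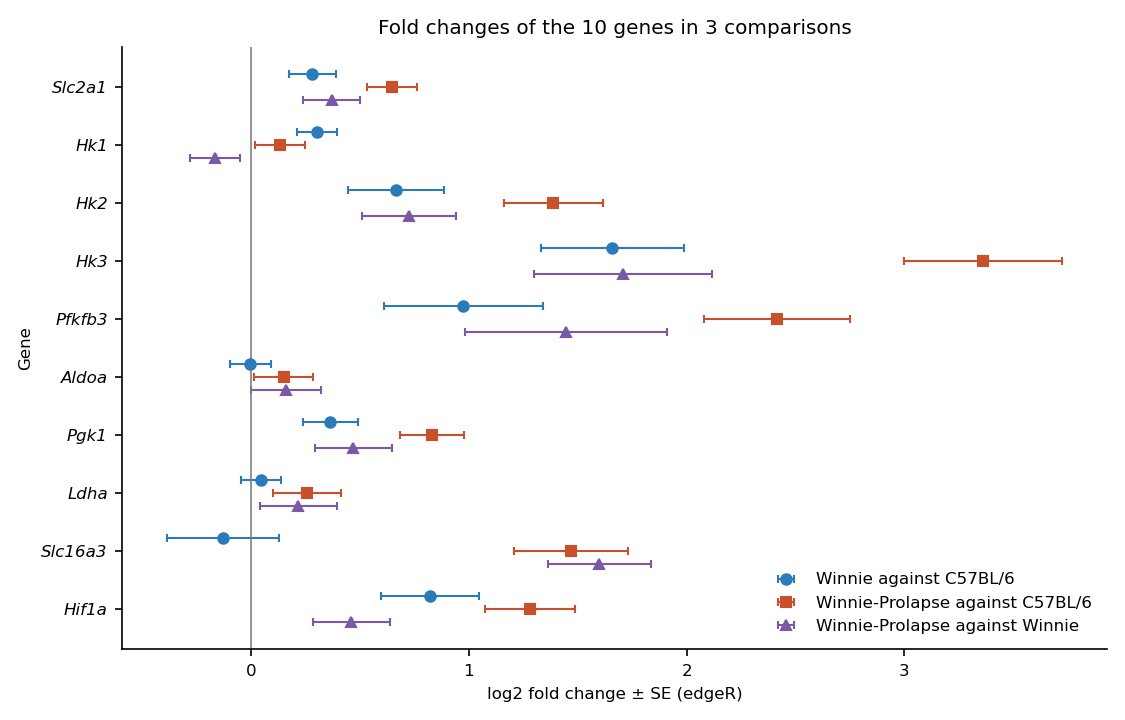
Log2 fold change (horizontal axis) with its standard error from edgeR for each gene in 3 comparisons, circles for Winnie against C57BL/6, squares for Winnie-Prolapse against C57BL/6 and triangles for Winnie-Prolapse against Winnie. Hk3 has the largest change in prolapse against C57BL/6 (3.36 ± 0.36), and Slc16a3 is near 0 in Winnie against C57BL/6 (-0.13 ± 0.26).

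Per kilobase of exon, the genes spanned a wide range of levels. In C57BL/6, Aldoa was at 548 ± 26.9 CPM per kilobase (SD, n = 8) and Ldha at 280 ± 20.9. Slc2a1 followed at 64.5 ± 8.94, then Hif1a at 44.6 ± 14.8, Hk2 at 41.9 ± 13.6, Hk1 at 31.8 ± 4.02 and Pgk1 at 26.6 ± 3.52, and from Slc2a1 to Pgk1 each neighbour was within the overlap of the SDs. Slc16a3 was at 3.40 ± 1.44, Pfkfb3 at 1.54 ± 0.516 and Hk3 at 0.192 ± 0.0624. In Winnie-Prolapse (n = 7), Hk2 stood at 110 ± 31.8, Hif1a at 108 ± 19.7 and Slc2a1 at 101 ± 18.7, which did not differ beyond their SDs, with Hk1 lower at 35.0 ± 6.62. Slc16a3 (9.41 ± 2.93) and Pfkfb3 (8.19 ± 4.28) lay side by side there, and Hk3 remained the lowest of the 10 at 1.98 ± 1.16.

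Positions of genes are on GRCm38, whole gene from GENCODE. Slc2a1 (chr4:119108711-119137983, plus strand), the basal glucose carrier, was measured at 199 to 275 CPM in C57BL/6 with a median of 210. Winnie colons were at 211 to 336 CPM with a median of 273, and Winnie-Prolapse colons at 266 to 463 with a median of 355. The groups overlapped in steps, with 3 of 7 Winnie libraries and 6 of 7 Winnie-Prolapse libraries above every control. The log2 difference of Winnie from C57BL/6 was 0.28 ± 0.11 (SE) and did not pass (adjusted p = 0.0638; 0.0187 to 0.484 over the alternatives). In prolapse the fitted log2 fold change was 0.65 ± 0.12 against C57BL/6 and 0.37 ± 0.13 against Winnie.

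Hexokinases carry out the first step of glycolysis, with Hk1 (chr10:62268855-62379908, minus strand) known as the housekeeping form, Hk2 (chr6:82725025-82774454, minus strand) as the inducible form and Hk3 (chr13:55005985-55021385, minus strand) as a form of myeloid cells. Hk1 rose in Winnie, from 272 ± 34.3 CPM (SD, n = 8) to 334 ± 31.9 (n = 7), a log2 difference of 0.30 ± 0.09 (adjusted p = 0.0253; 0.00866 to 0.267 over the alternatives). In 6 of 7 Winnie libraries Hk1 was above every control. Winnie-Prolapse Hk1 was at 299 ± 56.5 CPM, with log2 fold changes of 0.13 ± 0.11 against C57BL/6 and -0.17 ± 0.11 against Winnie. It was called in neither comparison.

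Hk2 was at 129 to 368 CPM in C57BL/6 with a median of 258, at 198 to 527 in Winnie with a median of 418, and at 401 to 938 in Winnie-Prolapse with a median of 715. The lowest Winnie library was replicate 5, and every prolapsed colon lay above every control. Hk2 rose in Winnie by a log2 fold change of 0.67 ± 0.22 (adjusted p = 0.0366; 0.00723 to 0.287 over the alternatives), a call kept in 5 of the 15 fits that left out 1 library. In prolapse the log2 fold change was 1.39 ± 0.23 against C57BL/6 and 0.73 ± 0.22 against Winnie.

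Hk3 was scarce in controls, at 0.245 to 0.989 CPM. It reached 0.897 to 3.904 CPM in Winnie, where 6 of 7 libraries were above every control, and 2.65 to 13.7 CPM in Winnie-Prolapse, where 7 of 7 were. Its rise in Winnie was the largest of the 10 genes on the log2 scale, 1.66 ± 0.33 (adjusted p = 0.00453; 2.97e-05 to 0.207 over the alternatives), and the call held in 15 of 15 fits without 1 library. The log2 fold change in prolapse was 3.36 ± 0.36 against C57BL/6 and 1.71 ± 0.41 against Winnie. Hk3 overlaps Unc5a on the other strand when whole genes are compared, and Unc5a held 169% as many counts as Hk3. Whether their exons overlap was not examined, and the strand setting of the counting was not given. Unc5a was at 5.19 ± 1.23 CPM in C57BL/6 (n = 8), 5.57 ± 0.641 in Winnie colons and 6.38 ± 3.14 in Winnie-Prolapse (n = 7 each). Whether reads of Unc5a entered the Hk3 counts was not tested.

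As a share of the 3 hexokinase mRNAs, scaled by exon length, Hk1 was 44.3% ± 9.09 (SD, n = 8) in C57BL/6, 37.8% ± 5.83 (n = 7) in Winnie colons and 24.6% ± 4.90 (n = 7) in Winnie-Prolapse. Hk2 was 55.5% ± 9.15, 61.6% ± 5.69 and 74.0% ± 5.18 in the same order. Every prolapsed colon had a larger Hk2 share (65.8% to 81.4%) than every control (37.2% to 64.3%). Hk3 stayed a small part, at 0.270%, 0.555% and 1.41% on average, with the highest share, 3.18%, in Winnie-Prolapse replicate 4. On raw counts, without scaling by length, Hk1 was the larger share in C57BL/6 (52.9% against 46.9% for Hk2) and Hk2 the larger in Winnie (53.2%) and in Winnie-Prolapse (67.4%), with Hk3 at 0.139%, 0.297% and 0.793%. These shares are made of the chosen genes and were not tested.

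**Figure D3:**
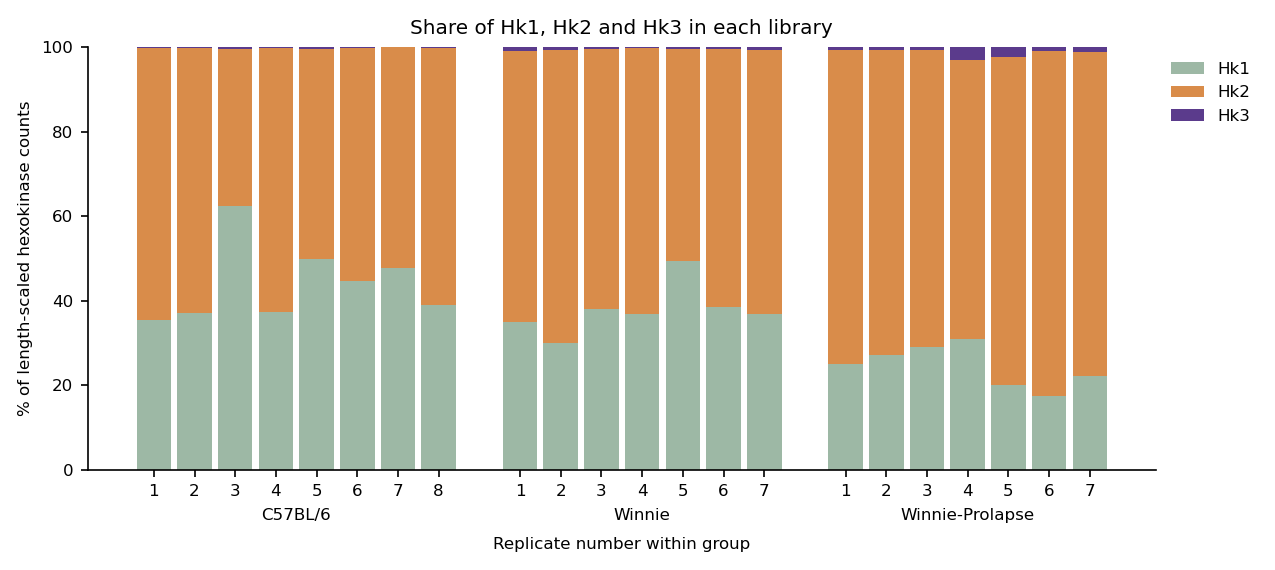
Share of Hk1, Hk2 and Hk3 in the length-scaled hexokinase counts of each library (vertical axis, percent), with libraries numbered by replicate within each group. Hk2 takes 65.8% to 81.4% in Winnie-Prolapse and 37.2% to 64.3% in C57BL/6.

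Pfkfb3 (chr2:11471433-11554077, minus strand), the kinase whose product activates phosphofructokinase, was at 7.79 to 17.8 CPM in C57BL/6 with a median of 10.2. Winnie libraries ran from 8.30 to 45.9 CPM with a median of 18.6, and Winnie-Prolapse libraries from 18.6 to 107 with a median of 64.8. All prolapsed colons lay above all controls. The Winnie difference was 0.98 ± 0.36 on the log2 scale and did not pass (adjusted p = 0.058; 0.00183 to 0.747 over the alternatives), and the prolapse changes were 2.41 ± 0.34 against C57BL/6 and 1.44 ± 0.46 against Winnie. The latter was 0.07 in males alone and 2.99 in females alone.

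The Winnie group split by sex at Pfkfb3. The 3 Winnie males were at 30.8 to 45.9 CPM, above all 4 Winnie females (8.30 to 18.6 CPM), beside 9.03 to 17.8 CPM in the female controls. The titles of the 4 Winnie females form 1 run of consecutive numbers that holds none of the males, so sex and that run, whose meaning is not given, cannot be told apart. In Winnie-Prolapse the order was the other way round, with females at 81.1 to 107 CPM and males at 18.6 to 64.8 CPM. The sex by Winnie interaction was 2.13 ± 0.51 on the log2 scale and had an unadjusted p of 0.000498 in edgeR, but an adjusted p of 0.212 over 17769 genes, so it failed the correction. No gene at all passed for that interaction (0%), although 2418 had an unadjusted p under 0.05. Txnip, a brake on glucose uptake whose values were singled out after they were seen, showed the reverse split in Winnie, with males at 373 to 536 CPM and females at 817 to 1534, and its interaction of -0.98 ± 0.35 also failed the correction (adjusted p = 0.272).

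None of the 10 genes differed between males and females over all 22 libraries with group in the model. In edgeR 0 passed an adjusted p of 0.05, where 0.0788% of all genes did, and their adjusted p-values ran from 0.968 to 0.999. An unadjusted p under 0.05 was reached by 0 of the 10 and by 777 of 17769 genes. DESeq2 called 0 of the 10. In Winnie-Prolapse, Slc16a3 was nevertheless higher in each female (59.0 to 70.4 CPM) than in each male (27.0 to 51.2 CPM), and Hk2 likewise (719 to 938 against 401 to 715 CPM). The interaction of sex with prolapse did not pass for Slc16a3 (-0.53 ± 0.50, adjusted p = 0.966) or Hk2 (-0.68 ± 0.44, adjusted p = 0.961); no gene passed (0%), and 883 had an unadjusted p under 0.05.

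Among the enzymes further down, the mRNA of aldolase A (Aldoa, chr7:126795234-126800751, minus strand), which splits the phosphorylated sugar, differed by less than the spread between libraries. It was at 1594 ± 78.3 CPM in C57BL/6, 1587 ± 228 in Winnie colons and 1778 ± 471 in Winnie-Prolapse (SD, n = 8, 7 and 7). The Winnie difference was -0.00 ± 0.09 on the log2 scale (adjusted p = 0.985), with no constant direction over the alternatives. In prolapse it was 0.15 ± 0.14 against C57BL/6, and 0.04 without Winnie-Prolapse replicate 3, which held the highest level of Aldoa (2692 CPM), Ldha (1882 CPM) and Pgk1 (170 CPM) and the highest epithelial sum of its group (14050 CPM).

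Pgk1 (chrX:106187100-106203699, plus strand), which makes the first ATP of the pathway, rose in Winnie. Its level was 50.0 to 72.5 CPM in C57BL/6 with a median of 56.3, 56.5 to 101 in Winnie with a median of 68.2 and 71.8 to 170 in Winnie-Prolapse with a median of 94.3. Only 3 of 7 Winnie libraries were above every control, and 6 of 7 prolapsed ones were. The Winnie change was 0.36 ± 0.12 on the log2 scale (adjusted p = 0.042; 0.0165 to 0.249 over the alternatives), a call kept in 6 of 15 fits without 1 library. Against C57BL/6 the prolapse change was 0.83 ± 0.14. Pgk1 has 4 near-identical annotated copies, of which Pgk1-rs7 matches it at 100% over 1255 bases; the copies held 13.1% as many counts as Pgk1. Pgk1-rs7 itself was at 5.59 ± 1.56 CPM in C57BL/6, 11.05 ± 3.91 in Winnie colons and 15.3 ± 2.98 in Winnie-Prolapse, so how shared reads were split is uncertain.

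Ldha (chr7:46841475-46855627, plus strand) was at 819 to 1013 CPM in C57BL/6 (median 935), 797 to 1066 in Winnie (median 1005) and 745 to 1882 in Winnie-Prolapse (median 933). The groups overlapped throughout. The log2 difference was 0.04 ± 0.09 in Winnie (adjusted p = 0.742; 0.493 to 0.988 over the alternatives, with 3 of 25 in the other direction) and 0.26 ± 0.16 in prolapse against C57BL/6, the latter 0.10 without Winnie-Prolapse replicate 3. Ldhb, the partner subunit known for running toward pyruvate, fell in Winnie, from 12.5 ± 5.69 CPM (n = 8) to 5.59 ± 2.42 (n = 7), a log2 change of -1.15 ± 0.29 (adjusted p = 0.0122). Without C57BL/6 replicate 7, where Ldhb was at 26.1 CPM, the change was -0.91 (adjusted p = 0.0138). In prolapse Ldhb was at 7.74 ± 5.76 CPM, and that difference from C57BL/6 did not pass (-0.69 ± 0.37, adjusted p = 0.132), but did at the limit of 0.05 without Winnie-Prolapse replicate 2 (-1.11, adjusted p = 0.00713). The log2 ratio of Ldha to Ldhb counts within a library was 5.04 to 6.85 in C57BL/6, 6.64 to 8.49 in Winnie and 5.51 to 8.61 in Winnie-Prolapse. Its mean was 1.22 higher in Winnie (p = 0.0014 by a two-sided exact permutation test, adjusted p = 0.0021 over 3 ratios), and 1.04 higher without C57BL/6 replicate 7, which had the lowest ratio. Smooth muscle markers were lower in Winnie as well, and their part in this was not tested.

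Slc16a3 (chr11:120948480-120960868, plus strand), the exporter MCT4, was high in prolapsed colons, and its difference between Winnie and C57BL/6 did not pass. C57BL/6 colons held 10.2 to 29.4 CPM with a median of 14.6, and Winnie colons 7.83 to 21.4 CPM with a median of 17.4. Winnie-Prolapse colons held 27.0 to 70.4 CPM with a median of 51.2. Every prolapsed colon was above every Winnie colon and 6 of 7 were above every control, the exception being replicate 2. The Winnie difference from C57BL/6 was -0.13 ± 0.26 on the log2 scale (0.916-fold, adjusted p = 0.737; 0.552 to 0.989 over the alternatives, with 2 of 25 in the other direction). The prolapse change was 1.47 ± 0.26 against C57BL/6 (2.77-fold) and 1.60 ± 0.23 against Winnie (3.03-fold), and it was between 1.47 and 1.71 against Winnie without any 1 library. Macrophage and monocyte, neutrophil and squamous markers were higher in the same prolapsed colons.

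MCT1 moved the other way. Slc16a1, the carrier that takes up butyrate and lactate, was at 422 ± 68.9 CPM in C57BL/6 (n = 8), 353 ± 101 in Winnie colons and 221 ± 42.5 in Winnie-Prolapse (n = 7 each). Its fall in prolapse was -0.94 ± 0.13 on the log2 scale against C57BL/6 (adjusted p = 3.45e-05) and -0.68 ± 0.18 against Winnie (adjusted p = 0.0325, a call lost without any one of Winnie replicates 3, 4, 5 or 6 or Winnie-Prolapse replicates 4, 5 or 6), while the Winnie difference did not pass (adjusted p = 0.252). The log2 ratio of Slc16a3 to Slc16a1 counts was -4.64 ± 0.71 in C57BL/6, -4.43 ± 0.76 in Winnie colons and -2.19 ± 0.71 in Winnie-Prolapse (SD). The Winnie shift of 0.21 was within the spread (two-sided exact permutation test, p = 0.584, n = 8 and 7), and the prolapsed colons, at -3.19 to -1.45, lay wholly above the other groups. Basigin (Bsg), the chaperone that brings both carriers to the membrane, was at 619 ± 88.7, 595 ± 109 and 551 ± 180 CPM and passed no test. Embigin (Emb), a related chaperone, rose in each comparison, from 3.69 ± 0.643 CPM to 6.28 ± 2.64 in Winnie (adjusted p = 0.0188) and 22.1 ± 8.69 in Winnie-Prolapse (adjusted p = 7.89e-07 against C57BL/6 and 0.00954 against Winnie).

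**Figure D4:**
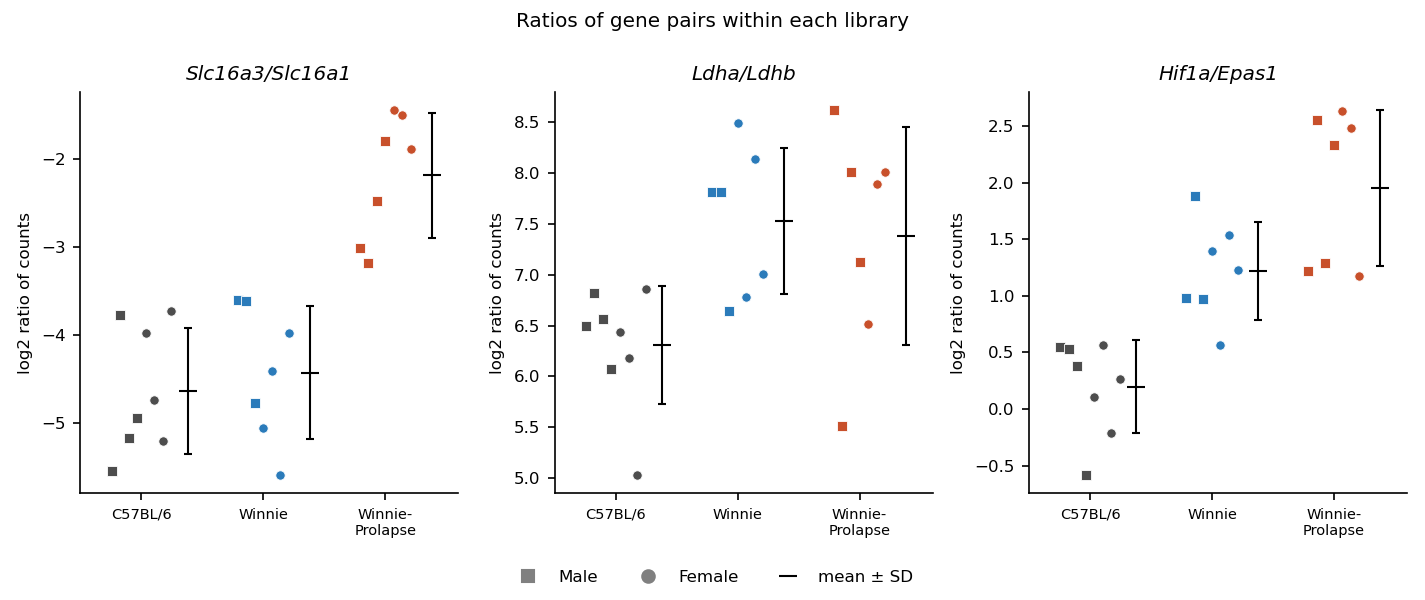
Log2 ratio of counts within each library (vertical axes) for Slc16a3 to Slc16a1, Ldha to Ldhb and Hif1a to Epas1, with squares for males, circles for females and the mean ± SD of each group. Slc16a3 to Slc16a1 lies at -3.19 to -1.45 in Winnie-Prolapse, a description only, since the set was chosen with Slc16a3 known to be high there. In Winnie its mean is 0.21 above that of C57BL/6 and did not pass, and the means of the other pairs are 1.22 and 1.02 above.

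Hif1a (chr12:73901375-73947530, plus strand) rose in Winnie. Its level was 137 to 379 CPM in C57BL/6 with a median of 275, 291 to 662 in Winnie with a median of 432 and 493.3 to 778 in Winnie-Prolapse with a median of 579. In 6 of 7 Winnie libraries and in all prolapsed ones it was above every control. The Winnie change was 0.82 ± 0.22 on the log2 scale (adjusted p = 0.0163; 0.0036 to 0.206 over the alternatives) and was called in 15 of 15 fits without 1 library. In prolapse it was 1.28 ± 0.21 against C57BL/6 and 0.46 ± 0.18 against Winnie. Epas1, which encodes the sister subunit HIF-2alpha, was at 218 ± 32.2, 194 ± 17.2 and 172 ± 59.7 CPM and passed no test. The log2 ratio of Hif1a to Epas1 was 1.02 higher in Winnie than in C57BL/6 colons (two-sided exact permutation test, p = 0.000311, adjusted p = 0.000932 over 3 ratios), at -0.58 to 0.56 in the controls and 0.56 to 1.88 in Winnie, where replicate 5 was the lowest and the only library within the range of the controls.

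Genes around the pathway were called in both directions. Of 19 other glycolytic enzymes tested, 3 were higher in Winnie (Pfkp, Pklr and Eno1) and 3 lower (Pfkm, Eno2 and Ldhb) at an adjusted p under 0.05, beside 13.8% higher and 11.9% lower over all genes, and their median log2 fold change was -0.02, beside -0.01 over all genes. Eno1, the common enolase, rose by 0.39 ± 0.10 on the log2 scale (adjusted p = 0.016), and Pfkm, the muscle phosphofructokinase, fell by 0.75 ± 0.17 (adjusted p = 0.0079). Eno2, the enolase of neurons, fell by 0.83 ± 0.20 (adjusted p = 0.00994). Gapdh (0.34 ± 0.15, adjusted p = 0.1) and Pkm (0.17 ± 0.10, adjusted p = 0.218) did not pass. At an adjusted p under 0.05, where 26.5% of all genes were higher and 26.0% lower in prolapse against C57BL/6, 7 of these enzymes were higher and 5 lower. At the stricter limits, 9.84% of all genes were higher and 8.47% lower. There were 2 higher in this list, Eno1 (0.74 ± 0.11, adjusted p = 6.79e-05) and Bpgm (0.97 ± 0.16, adjusted p = 0.000174), and 1 lower, Eno2 (-1.23 ± 0.25, adjusted p = 0.000825). Bpgm, the bisphosphoglycerate mutase best known from red cells, was the 1 enzyme of this list called against Winnie (0.50 ± 0.14, adjusted p = 0.0434). In that comparison 5.01% of all genes were higher and 3.73% lower. Red cell genes were also high in prolapse, at 123 to 1808 CPM in sum against 6.42 to 62.6 in Winnie and 15.2 to 483 in C57BL/6. In Winnie against C57BL/6, Bpgm was at 0.48 ± 0.19 on the log2 scale and did not pass (adjusted p = 0.0719). There 5 of 5 red cell genes were lower, beside 11.9% of all genes. The part of red cells in the Bpgm values was not tested.

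Among 12 other sugar and monocarboxylate carriers and chaperones tested, Emb was higher in Winnie and Slc2a3 (-0.89 ± 0.29, adjusted p = 0.0336) and Slc2a4 (-0.66 ± 0.23, adjusted p = 0.0426), a pair of glucose carriers, were lower. Over all genes, 13.8% were higher and 11.9% lower in Winnie. In prolapse against C57BL/6, 2 were higher and 8 lower at an adjusted p under 0.05, beside 26.5% and 26.0% of all genes. At the stricter limits these came down to Emb higher, and Slc16a1 and the fructose carrier Slc2a5 lower (-2.24 ± 0.36, adjusted p = 0.000132). Those limits were passed by 9.84% of all genes as higher and 8.47% as lower. Against Winnie at the limit of 0.05, 2 were higher (Emb and Slc2a3) and 3 lower (Slc2a5, Slc16a1 and Slc5a8, a sodium-coupled carrier of butyrate and lactate, -0.86 ± 0.21, adjusted p = 0.0269). Over all genes, 5.01% were higher and 3.73% lower there. The list's median log2 fold change was -0.60 in prolapse against C57BL/6, where that of all genes was -0.01. The median sum of colonocyte markers was lower in Winnie-Prolapse, at 1854 against 7517 CPM. Winnie-Prolapse ran from 1184 to 7084 CPM and C57BL/6 from 5270 to 9400, with Winnie-Prolapse replicate 3 inside the range of the controls. Of these 6 genes, 4 were lower and 1, Krt20, was higher at an adjusted p under 0.05 in edgeR. The part of these cells in the carrier values was not tested.

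Of 15 regulators of glycolysis and pyruvate entry, Pdk3 was higher and Pdk4 lower in Winnie (0.36 ± 0.12, adjusted p = 0.0398, and -1.40 ± 0.44, adjusted p = 0.0302), both kinases that switch off pyruvate dehydrogenase. Over all genes, 13.8% were higher and 11.9% lower. In prolapse against C57BL/6, 2 were higher and 4 lower at an adjusted p under 0.05, beside 26.5% and 26.0% of all genes. The 2 were Pdk3 (0.50 ± 0.12, adjusted p = 0.00245) and Pfkfb1 (0.86 ± 0.23, adjusted p = 0.00531), both named after their values were seen. At the stricter limits, where 9.84% of all genes were higher and 8.47% lower, 0 were higher and the same 4 were lower. These were Pdk2 (-1.31 ± 0.18, adjusted p = 2.52e-05), Mpc1, a subunit of the mitochondrial pyruvate carrier (-0.62 ± 0.11, adjusted p = 0.000353), Pck1 of gluconeogenesis (-2.85 ± 0.35, adjusted p = 1.05e-05) and Txnip (-0.99 ± 0.17, adjusted p = 0.000216). Pdk2, Pck1 and Txnip were lower against Winnie as well, with adjusted p-values of 0.0322, 0.0283 and 0.0405. None of the 15 was higher there, and over all genes 3.73% were lower and 5.01% higher.

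Among 16 HIF partners, regulators and targets other than the 10 genes, 1 passed in Winnie, Vhl, which marks HIF subunits for breakdown and fell by 0.36 ± 0.11 on the log2 scale (adjusted p = 0.0262). Over all genes, 11.9% were lower and 13.8% higher. At the stricter limits 0 of 16 passed in prolapse against C57BL/6, beside 9.84% of all genes higher and 8.47% lower. At an adjusted p under 0.05 Adm was higher and Vhl lower, beside 26.5% and 26.0% of all genes. Adm, a peptide gene known to respond to low oxygen, was the 1 gene of this list called against Winnie (1.11 ± 0.32, adjusted p = 0.0479). Over all genes, 5.01% were higher and 3.73% lower in that comparison. The list's median log2 fold change was -0.07 in Winnie and -0.04 in prolapse against C57BL/6. The calls of these 4 lists differed in how they held without 1 library. In Winnie, Pfkm, Eno1, Eno2 and Ldhb were called in 15 of 15 such fits, Emb in 14, Vhl in 12, Pklr in 11, Pdk4 in 10, Slc2a3 in 8, Pfkp in 7, Slc2a4 in 3 and Pdk3 in 2. In prolapse against C57BL/6, only the 10 calls at the stricter limits were followed. Mpc1 was called in 7 of 15 fits and Eno2 in 2, and each of the other 8 in 15. In prolapse against Winnie, Emb was called in 14 of 14, Slc2a5 in 13, Slc2a3 in 9, Slc5a8 in 8, Slc16a1 and Pck1 in 7, Pdk2 in 6, and Bpgm, Txnip and Adm in 5. Leaving out 1 library kept 4 (without Winnie replicate 1) to 12 of the 12 calls in Winnie. It kept 8 to 10 of the 10 calls at the stricter limits in prolapse against C57BL/6. Of the 10 calls in prolapse against Winnie it kept 1 (Emb, without Winnie replicate 4) to 10, with 3 left without Winnie-Prolapse replicate 6 and 3 without Winnie replicate 5.

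Within groups, Slc16a3 was set beside the other 9 genes on log2 CPM, 27 relations in all, added after values had been seen. Pgk1 followed Slc16a3 among the 8 C57BL/6 colons (r = 0.946, exact permutation p = 0.000967, adjusted p = 0.0261; Spearman's rho = 0.929, exact p = 0.00223, adjusted p = 0.0603). The coefficient was 0.865 without the 2 libraries farthest from the median of Slc16a3 and 0.938 without C57BL/6 replicate 7. In the other groups the relation of Pgk1 with Slc16a3 did not pass, with r = -0.236 among the 7 Winnie colons (exact p = 0.684, adjusted p = 0.897; rho = -0.071, exact p = 0.906, adjusted p = 0.941) and r = 0.151 among the 7 prolapsed colons (exact p = 0.742, adjusted p = 0.897; rho = 0.143, exact p = 0.783, adjusted p = 0.919). Whether the coefficient differs between groups was not tested. None of the other 26 relations passed by Pearson's r. Among the 7 prolapsed colons, Hk3 had r = 0.827 (exact p = 0.0244, adjusted p = 0.264; rho = 0.857, exact p = 0.0238, adjusted p = 0.321) and r = 0.485 without the 2 farthest libraries. The summed macrophage and monocyte markers had r = 0.866 there (exact p = 0.00595, adjusted p = 0.214 over 36 relations; rho = 0.893, exact p = 0.0123, adjusted p = 0.443) and r = 0.577 without the 2 farthest libraries. None of the 36 relations with marker sums passed the correction. In the same colons the sum of 9 neutrophil genes without Ly6g had r = 0.632 (exact p = 0.14, adjusted p = 0.734; rho = 0.571, exact p = 0.2, adjusted p = 0.901), and 0.153 without the 2 farthest libraries. With Ly6g added, r was 0.374 (exact p = 0.408, adjusted p = 0.734; rho = 0.357, exact p = 0.444, adjusted p = 0.901), and -0.690 without them. The squamous sum had r = 0.041 (exact p = 0.927, adjusted p = 0.954; rho = 0.179, exact p = 0.713, adjusted p = 0.939), and 0.187 without them.

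**Figure D5:**
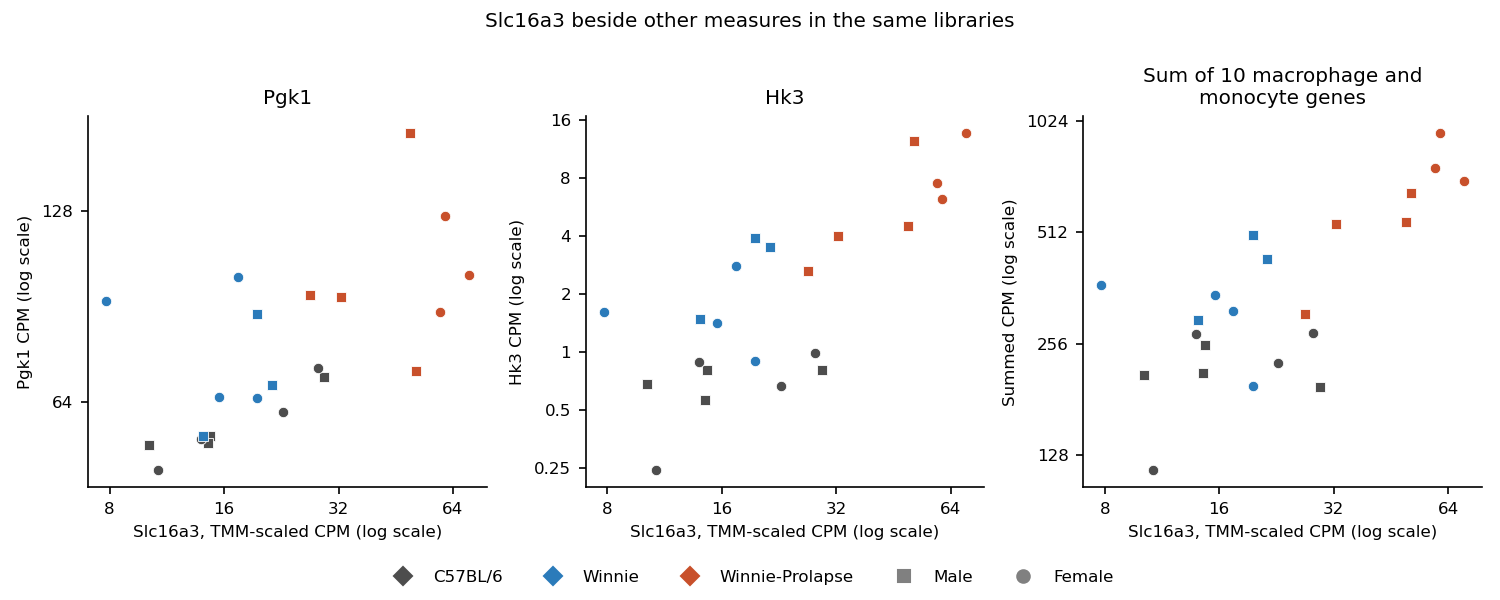
Slc16a3 (horizontal axes, TMM-scaled CPM on a log scale) against Pgk1, Hk3 and the sum of 10 macrophage and monocyte genes (vertical axes, CPM on a log scale), with 1 point per library coloured by group, squares for males and circles for females. Pgk1 against Slc16a3 has r = 0.946 among controls, -0.236 among Winnie colons and 0.151 among prolapsed colons, and Slc16a3 is at 27.0 CPM or more in every Winnie-Prolapse library.

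With group means removed, the genes most like Slc16a3 over the 22 libraries, among 13599 genes with a mean log2 CPM of at least 1, were Hif3a (r = 0.772), Dhx57 (0.729), the gene ENSMUSG00000036469 (0.723), Slc28a2 (0.706) and Acin1 (0.692). Hif3a encodes another HIF alpha subunit and was at 19.4 ± 13.0 CPM in C57BL/6, 21.7 ± 9.51 in Winnie colons and 33.9 ± 12.1 in Winnie-Prolapse. Of the other genes studied here, Hk3 ranked 135 (r = 0.562) and Pfkfb3 297 (r = 0.511), and Hk1 was the lowest (r = -0.111). These coefficients describe likeness across libraries that share depth and tissue makeup and were not tested.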

How the data were processed

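RNA from the distal colon of 22 mice was selected for poly(A), made into stranded libraries and sequenced in paired ends. The authors ran the RNAsik pipeline and counted reads per gene on GRCm38 with featureCounts, and the submitters' processing notes also name STAR and limma. The deposited table holds raw read counts for 46078 genes and 22 libraries. The annotation release, the strand setting and the treatment of shared reads were not given in the sources used here. Gene positions and exon lengths came from GENCODE M21, and promoter sequences from RefSeq on GRCm38.p6.

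Counts were tested with edgeR 4.0.16 (quasi-likelihood F test, TMM, filterByExpr, Benjamini-Hochberg over all genes tested) in R 4.3.3, on the libraries of each pair of groups. Sex and its interaction with group were fitted over all libraries. Levels are CPM scaled by TMM factors of 0.834 to 1.135. Log2 CPM used a prior count of 2 and ratios added 0.5 to each count. Alternatives were library totals, DESeq2 1.42.0, limma-voom 3.58.1, other filters, a sex covariate, 1 fit over all groups, each sex alone and leaving out each library. Winnie-Prolapse against C57BL/6 without C57BL/6 replicate 7 and Winnie-Prolapse replicate 6 was added after seeing the data. The fitting script was tested on simulated data.

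Groups, sex and age came from the sample labels. The labels name no batch, and the meaning of the numbers and of 1 date in sample titles is not given, so no within-batch value was computed. Replicate numbers follow the order of the sample list. The 10 genes and all gene lists were chosen with earlier results of these data known. The genes named are the 10 members, 7 partner genes, up to 4 called genes of each list and comparison, and the 5 genes most like Slc16a3. Other genes are named where they make up a small count or stand out in a check (Pfkp and Pklr among them), and were chosen after their values were seen. The labels give 7 Winnie libraries and all were used. The study's text gives fewer for its RNA-seq of Winnie colons, and which was left out is not given in the sources used here.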

Additional observations from a re-analysis of the deposited data

Results flagged for a closer look

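In C57BL/6 replicate 7 the log2 ratio of Ldha to Ldhb counts was 5.035, the next lowest control being at 6.072. Its gap to the next library was 0.570 of the range of the 8 controls, which sets it apart from them. Ldhb was at 26.1 CPM in that library, the highest of the group, whose median was 10.9 CPM. The library also stood apart over all genes. Across the 39 sets of values examined (10 genes and 3 ratios in 3 groups) this was the 1 value so marked, and chance marks about 1 in 20 such sets.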

How the results depend on the processing

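No paired analysis was possible because the labels give the mice no shared replicate numbers. In Winnie against C57BL/6, the 10 genes called numbered 5 in the main fit, 3 with library totals, 3 with at least 10 counts in every library, 2 in males alone and 0 in females alone. Of all genes tested, males alone called 5299 and females alone 1, beside 4441 in the main fit. Without 1 library each, 3 to 7 of the 10 and 2781 (without Winnie replicate 1) to 6151 genes (without Winnie replicate 5) were called. In Winnie-Prolapse against C57BL/6, DESeq2 called 5005 genes, males alone 307 and females alone 255, with 0 and 1 of the 10 genes called in males and in females. Without 1 library each, 5 to 7 of the 10 and 2517 to 3657 genes were called. In Winnie-Prolapse against Winnie, DESeq2 called 3254 genes, a sex covariate 964 and 1 fit over all groups 2453, the last with 6 of the 10. Males alone called 0 genes and 0 of the 10, and females alone 2840 genes and 4 of the 10. Without 1 library each, 1 to 5 of the 10 and 479 (without Winnie replicate 4) to 2504 genes (without Winnie replicate 2) were called. The cause of these shifts was not tested.

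Log2 values that changed direction in Winnie against C57BL/6 were Pfkfb3 in females alone (-0.22), Ldha with library totals (-0.045), at least 10 counts in every library (-0.002) and males alone (-0.038), Slc16a3 in males alone (0.10), and Aldoa with no filter (0.009) and in females alone (0.04). Without 1 library each, Aldoa ran from -0.062 to 0.029 and Slc16a3 from -0.216 to 0.007. With library totals, the difference of males from females changed direction for Hk1 (0.064), Hk2 (0.037), Pfkfb3 (0.086), Pgk1 (0.001) and Ldha (0.035), as did the interaction of Hk1 in Winnie (0.096) and of Slc2a1 in prolapse (0.087). None of these values had passed a test, and that scaling moved the median interaction of all genes from 0.031 to 0.132 in Winnie and from 0.032 to 0.160 in prolapse. The differences in ratio for Ldha to Ldhb and Hif1a to Epas1 kept their direction and their side of the threshold in 16 of 16 alternatives each. Hk3 had the lowest level of the 10 genes, from 0.245 CPM, beside 0.0825 to 0.121 CPM for 3 counts in a library.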
